A study of Mus musculus with 2 samples.

Results

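The upper-dermis-like (papillary) fibroblasts of embryonic mouse back skin made up 690 of the 6462 cells with at least 5000 cuts in 2 single-cell ATAC-seq libraries, where a cut is a Tn5 insertion counted inside a called peak. They were chosen by a rule that read the accessibility of these same cells. A cell's score for a gene set was its share of cuts in peaks within 2 kb of the gene bodies, divided by the mean share in its library. Fibroblasts were the cells whose score over 9 epithelial genes (Krt5, Krt14, Trp63, Epcam, Cdh1, Perp, Dsp, Sfn and Esrp1) was more than 1 log2 unit below that over 8 fibroblast genes (Col1a1, Col1a2, Col3a1, Pdgfra, Twist2, Lum, Dpt and Prrx1). They were then ranked by the score of Lef1, Axin2, Apcdd1, Ntn1 and Dkk1 divided by the score of Dlk1, Mfap5, Pparg and Dpp4, and the highest of 3 equal parts was taken in each library. This gave 231 upper-dermis-like cells of 694 fibroblasts in Control and 459 of 1381 in MOF cKO. The lowest part, called lower-dermis-like cells here, held 231 and 459 cells, and the middle part 231 and 458.

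Both libraries came from E16.5 back skin, with 1 library per genotype and no label that gives the number or sex of the embryos in it. MOF cKO skin carried the genotype MOFfl/fl/K14Cre, which removes the histone acetyltransferase MOF (gene Kat8) with a Cre driven by the Krt14 promoter of basal epithelial cells. This Cre is not directed at fibroblasts, so fibroblasts labelled MOF cKO are cells beside an altered epithelium. Controls were littermates on the same mixed C57Bl/6J and CD-1 background, and both carried the K14-H2BGFP reporter. GFP-positive and GFP-negative cells were sorted apart and mixed again to enrich the epithelium, at a ratio that the labels and the study's methods give differently, so the share of fibroblasts in a library is set by the sort. With 1 library each, genotype, embryo and library preparation cannot be told apart, and no difference was tested. All intervals in brackets are 95% intervals on fragments, taken as cuts divided by 2, and cover counting error only.

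The papillary dermis lies under the epidermis and gives rise to the fibroblasts that support hair follicles, including the dermal condensate. The reticular dermis lies deeper, makes most of the fibrillar matrix and is next to the cells that form dermal fat. Wnt ligands from the epidermis keep beta-catenin signalling active in the upper dermis, where Lef1 is a nuclear effector and Axin2, Apcdd1 and Dkk1 are feedback targets that restrain the pathway. Ntn1 encodes the secreted guidance protein netrin. Of the genes on the other side of the rule, Dlk1 marks deeper fibroblasts, Mfap5 encodes a microfibril protein and Pparg the master regulator of fat cells. Dpp4 was placed on this side by the rule, and whether it marks deeper fibroblasts in this skin was not tested.

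The members were set apart from the other fibroblasts more by few cuts at the lower-dermis genes than by many cuts at the upper-dermis genes. Their median upper-set score was 1.55 in Control and 1.64 in MOF cKO, against 1.00 and 0.925 in lower-dermis-like cells. Their median lower-set score was 0.334 and 0.405, against 1.77 and 1.54. In 75 Control and 102 MOF cKO members the lower-dermis genes held no cut at all. These cells ranked highest under the rule, although their median depths of 25887 and 29267.5 cuts were below the 60329 and 51357 cuts of all members.

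The rule's own genes describe the choice and test nothing. CPM stands for cuts per 1000000 cuts in shared regions. In this paragraph and the next, values are instead per 1000000 cuts in each library's own peaks. These peaks differ in number, with 26 for Lef1 in Control and 37 in MOF cKO, and 18 and 37 for Pparg. Levels are therefore to be compared within a library only. Lef1 had 129 in Control members against 78.5 in Control lower-dermis-like cells, and 112 against 58.4 in MOF cKO. Axin2 had 152 against 95.4 and 140 against 73.2. Apcdd1 had 61.3 against 41.4 and 63.4 against 40.1. Ntn1, the longest of the set, had 265 against 177 and 215 against 135. It supplied 42.1% of the upper-set cuts in Control members and 39.4% in MOF cKO members, so the upper score leaned on this 1 gene. Dkk1 had 22.4 against 6.98 and 14.8 against 6.92, the widest fold of the set at 3.21 and 2.14.

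On the lower side, in the same units, Pparg had 13.6 in Control members against 84.3 in lower-dermis-like cells, and 26.1 against 127 in MOF cKO. Mfap5 had 2.52 against 22.3 and 3.48 against 17.6. Dpp4 had 22.4 against 83.8 and 30.0 against 75.6. It supplied 48.9% of the lower-set cuts in Control members and 46.9% in MOF cKO members, so their lower score leaned on this gene. Over all 3 parts of the ranking Dpp4 supplied 45.5% in Control and 36.4% in MOF cKO, and Pparg 36.7% and 50.1%. Dlk1 had 7.20 against 17.3 and 4.40 against 16.54. Pparg was cut in 30.7% of Control members and 43.6% of MOF cKO members, and in 85.7% and 90.6% of lower-dermis-like cells.

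The ranking formed a continuum with no gap at the border. In Control the lowest ratio inside and the highest outside were tied at 2.08, and in MOF cKO they were 2.10 and 2.08. Within 10% of the border lay 28 Control cells inside and 20 outside, and 50 and 55 MOF cKO cells. The members are therefore a range of a score and not a separate cell type. When each cell was thinned to 5000 cuts before ranking, 48.1% of Control and 50.1% of MOF cKO members were chosen again. Members were 33.3% and 33.4% of all ranked fibroblasts, which is the share to read these against.

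Regions between 2 and 100 kb from the rule genes took no part in the ranking, and they followed it for some genes only. Round Lef1 they were higher in members than in lower-dermis-like cells by 0.65 log2 units in Control and 0.21 in MOF cKO, round Apcdd1 by 0.34 and 0.57 and round Dkk1 by 0.59 and 0.33. Round Ntn1 the values were 0.01 and -0.09. Round Axin2 they had opposite signs, -0.18 [-0.26, -0.11] in Control and 0.18 [0.12, 0.23] in MOF cKO. Round Dlk1 the values were -0.25 and -0.31, round Dpp4 -0.54 and -0.05, and round Pparg -0.60 and -0.16. Round Mfap5 they were 0.06 and -0.19.

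The cells were also set against genes that the rule did not use. These lists were drawn up with earlier results of these data known, so they give no independent check of the label. Of 22 other upper-dermis genes, all 22 were higher in members than in lower-dermis-like cells in Control and 19 in MOF cKO, with a median log2 difference of 0.32 and 0.26. Over all 17462 genes measured the medians were -0.03 and -0.01, and 7872 and 8297 genes were higher. Higher in both libraries were 4817 of them (27.6%) and lower in both 6110 (35.0%), the background for the counts given below. Of the 22 genes, 3 (13.6%) were at least 1.25-fold higher in both libraries, against 3.44% of all genes, a fold that was set after values were seen. The differences were thus in the direction of the label and small for a single gene. In MOF cKO the median was 0.15 with cells thinned to 5000 cuts before ranking and 0.14 from promoters alone.

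Alx4, a homeobox gene of the upper dermis, had 53.1, 41.6 and 29.7 CPM in the upper, middle and lower parts of the Control ranking, a log2 difference of 0.84 [0.59, 1.08] from top to bottom. In MOF cKO it had 31.7, 30.4 and 22.6 CPM and a difference of 0.48 [0.25, 0.73]. Its level was lower further down the ranking in both libraries. Wif1, a secreted Wnt inhibitor, had 149.5, 135.6 and 94.5 CPM in Control and 89.7, 80.5 and 63.4 in MOF cKO. The Control levels of Wif1 lay above those of MOF cKO in all 3 parts. Bmp4, which signals to the overlying epidermis, had 64.9, 57.2 and 48.5 CPM in Control and 53.8, 49.3 and 36.3 in MOF cKO.

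Nkd1, an intracellular brake on Wnt signalling, was higher in members by 0.50 log2 units in Control and 0.32 in MOF cKO, and Col13a1, a membrane collagen, by 0.50 and 0.24. Crabp1, a retinoic acid binding protein, differed by 0.32 and 0.46. Notum, an enzyme that inactivates Wnt proteins, differed by 0.53 in Control and by 0.12 [-0.13, 0.38] in MOF cKO. Among the genes below 0 in MOF cKO, Trps1 had -0.22 and Lrig1 -0.08, with Control values of 0.04 and 0.09.

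**Figure D1:**
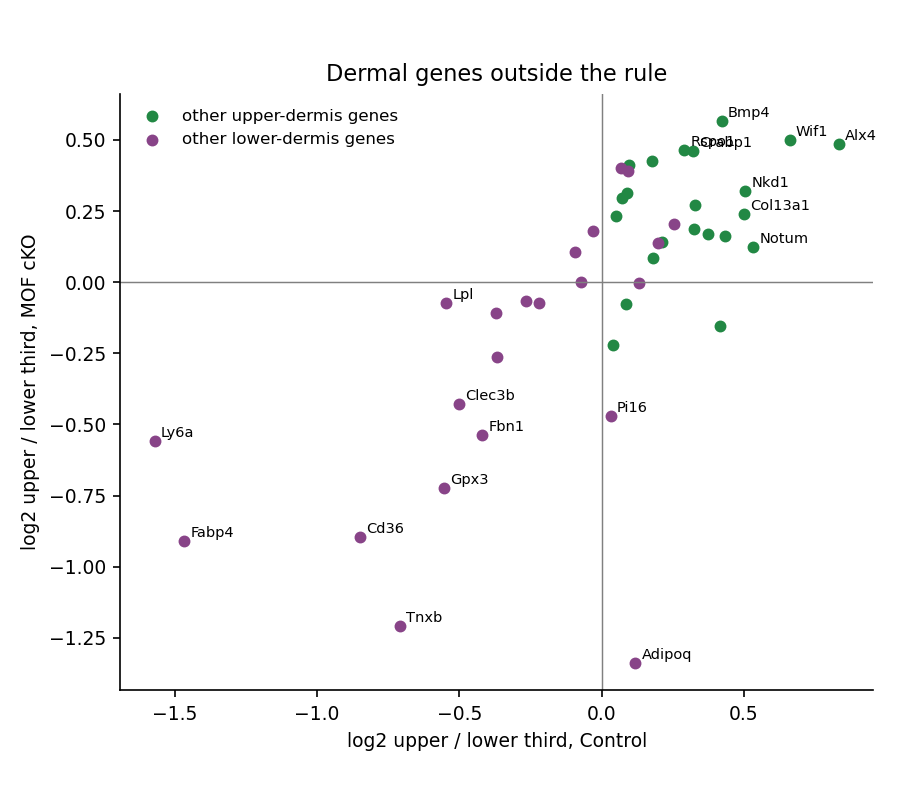
Each point is 1 gene of the lists of other upper-dermis genes (green) or other lower-dermis genes (purple). The axes give log2 of CPM in the upper over the lower part of the ranked fibroblasts, in Control (x) and MOF cKO (y). All 22 green points lie to the right of 0 and 19 lie above 0, while 15 of 22 purple points lie on the negative side in each library.

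Genes of the lower dermis and of fat outside the rule were less uniform. Of 22, 15 were lower in members in each library and 12 in both, with medians of -0.24 in Control and -0.09 in MOF cKO. With cells thinned before ranking these medians were 0.0147 and -0.00488, so the lean of this list depended on that setting. The MOF cKO median was -0.18 with the mean of gene scores in the rule, -0.15 without cells scoring for other types, -0.0519 with totals over each library's own peaks and -0.0468 with median-of-ratios totals. At least 1.25-fold lower in both were 7 of them (31.8%), against 5.69% of all genes. Tnxb, an elastic matrix glycoprotein of deep dermis, had 15.6 CPM in Control members, 20.2 in middle and 25.5 in lower-dermis-like cells. In MOF cKO it had 17.5, 26.7 and 40.4 CPM, a difference of -1.21 [-1.46, -0.96]. Cd36, a fatty acid transporter, had 11.8, 17.9 and 21.3 CPM in Control and 20.01, 27.6 and 37.2 in MOF cKO. Both were thus lowest in members.

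Fbn1, which encodes the main microfibril protein, differed by -0.42 [-0.58, -0.26] and -0.54 [-0.67, -0.41]. Gpx3, a secreted peroxidase, differed by -0.56 and -0.72 and Clec3b by -0.50 and -0.43. Fabp4, a lipid carrier of fat cells, had wide intervals, with -1.47 [-3.75, -0.02] in Control. Not every list gene went this way: Col14a1, a fibril-associated collagen of deep dermis, was higher in members by 0.25 and 0.21, and Zfp423, a preadipocyte factor, by 0.20 and 0.14.

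The contrast built up mostly at the bottom of the ranking. Over the 22 other upper-dermis genes together, the 6 successive parts of the Control ranking had 2096, 2081, 2032, 1930, 1730 and 1604 CPM. Apart from 1 cell, the first 2 of these are the members, and the part just outside them had a nearly equal level. In MOF cKO the values were 1794, 1771, 1725, 1700, 1643 and 1476 CPM, with the greatest drop in the last part. For the lower-dermis list the 6 parts ranged from 1470 to 1606 CPM in Control and from 1455 to 1578 in MOF cKO, with no steady order.

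**Figure D2:**
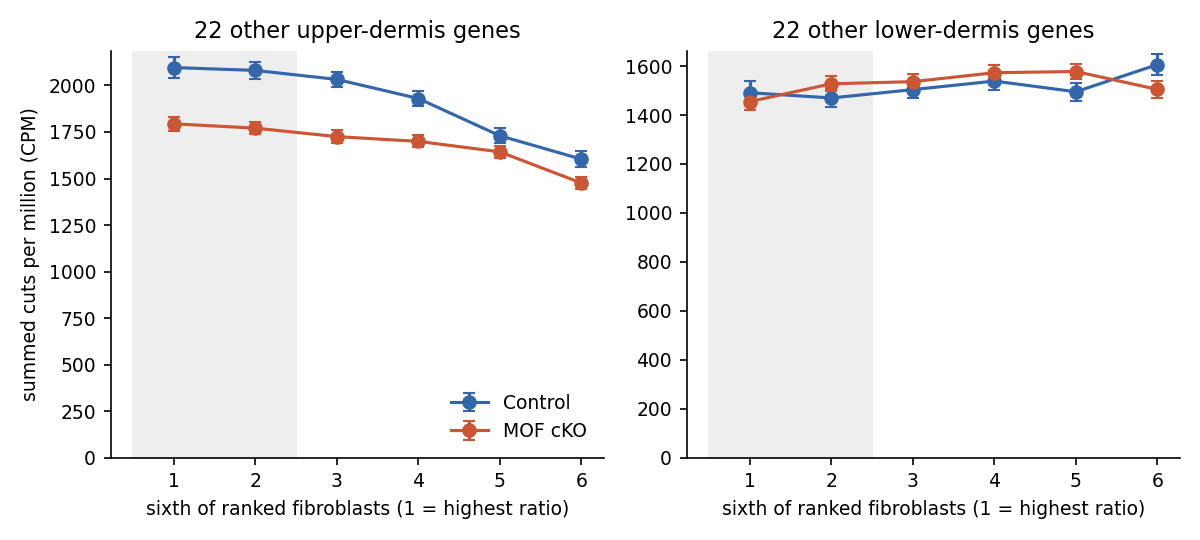
Summed CPM of 22 other upper-dermis genes (left) and 22 other lower-dermis genes (right) in 6 successive parts of the ranked fibroblasts, from the highest ratio (1) to the lowest, in Control (blue) and MOF cKO (orange). Bars are 95% counting intervals and grey marks the first 2 parts, which hold the members. The upper-dermis sum drops from 2096 to 1604 in Control and from 1794 to 1476 in MOF cKO, mainly after the members, and the lower-dermis sum stays close to level.

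Among the members themselves, the upper-dermis sum was set against depth and an empty lower set. The summed upper-dermis list differed from that in lower-dermis-like cells by 0.30 log2 units in Control members with no lower-set cut and by 0.32 in the others, and by 0.16 and 0.19 in MOF cKO. It differed by 0.29 in the 116 shallower and 0.33 in the 115 deeper Control members, and by 0.20 and 0.17 in MOF cKO. In all 8 groups of members this sum lay above that of the lower-dermis-like cells. The groups are overlapping splits of the same members against the same lower-dermis-like cells, so they are not 8 separate observations. The condensate sum differed by 0.16 in the shallower and 0.30 in the deeper Control members, and by 0.05 and 0.11 in MOF cKO, so it was further from 0 in deeper cells. The lower-dermis sum differed by -0.09 in MOF cKO members with no lower-set cut and by -0.04 in the others.

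Wnt genes outside the rule are grouped by their role in the pathway. The lists here and below share members with the upper-dermis list, so their counts are not separate. Dkk2 is on that list and among the Wnt inhibitors, and Bmp4, Col13a1 and Crabp1 are on it and on the BMP, matrix and retinoic acid lists. Of 20 inhibitors and feedback genes, 14 (70.0%, against 27.6% of all genes) were higher in members in both libraries and 3 (15%, against 35.0%) lower in both. Past 1.25-fold were 2 (10.0%, against 3.44%) and 1 (5.00%, against 5.69%). Sfrp5, a secreted Frizzled-related Wnt antagonist, had 26.8, 25.6 and 16.7 CPM in Control and 25.9, 23.4 and 15.9 in MOF cKO, with a difference of 0.68 [0.35, 1.03] and 0.70 [0.42, 0.98]. Sfrp4, of the same family, went the other way, by -0.53 and -0.36. Kremen1, a receptor for Dickkopf proteins, differed by 0.36 and 0.27.

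Of 14 Wnt and R-spondin ligands, 9 (64.3%) were higher in both libraries and 1 (7.14%) lower in both, and 0 passed 1.25-fold in both. Wnt11 differed by 0.41 and 0.26, Wnt5a by 0.19 and 0.39, and the R-spondins Rspo1 and Rspo3, which amplify Wnt signals, by 0.29 and 0.47 and by 0.33 and 0.27. Of 32 receptors and transducers, 14 (43.8%) were higher in both and 8 (25%) lower in both, and 0 passed 1.25-fold. Ror1, a receptor for Wnt5a, had values of -0.45 and -0.27. Receptors and transducers had medians of 0.04 and 0.07.

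Genes of the dermal condensate, the fibroblast cluster that induces the hair follicle, leaned to the members, with a higher median in Control. Of 17, 9 (52.9%, against 27.6% of all genes) were higher in both and 2 (11.8%, against 35.0%) lower in both, with medians of 0.21 in Control and 0.11 in MOF cKO. Past 1.25-fold in both were 2 (11.8%) and 1 (5.88%), the latter near the background of 5.69%. Sox2, a transcription factor of the condensate, had 28.1, 23.5 and 19.7 CPM in Control and 20.7, 19.8 and 14.01 in MOF cKO. Its level was highest in members in both libraries. Sox18, an early condensate factor that is also made by endothelial cells, had 24.1, 16.7 and 10.7 CPM in Control but 10.9, 10.5 and 10.2 in MOF cKO. The Control difference of Sox18 was 1.16 [0.77, 1.57] and that in MOF cKO 0.09 [-0.30, 0.47]. Edn3, the ligand that guides melanocytes, differed by 0.33 and 0.72, and Fgf7, a growth factor for the epidermis, by -0.71 and -0.73.

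Of 27 BMP and TGF-beta genes, 11 (40.7%) were higher in both libraries and 2 (7.41%) lower in both, and 4 (14.8%, against 3.44%) and 0 passed 1.25-fold. Grem1, a BMP antagonist, had 21.1 CPM in Control members against 13.0 in lower-dermis-like cells, and 24.1 against 14.4 in MOF cKO. Bmp7 differed by 0.43 and 0.42 and Tgfb3 by 0.76 and 0.38. Of 44 dermal transcription factors, 20 (45.5%) were higher in both and 15 (34.1%) lower in both, the latter at the background of 35.0%. Runx3, a Runt factor, had 153 CPM in Control members against 103, and 119 against 89.5 in MOF cKO, and Msx2, a target of BMP signalling, differed by 0.48 and 0.74. Klf2, a factor known from endothelium, was lower by -0.42 and -0.36.

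Of 39 matrix genes, 16 (41.0%) were higher in both and 10 (25.6%) lower in both, and 3 (7.69%) passed 1.25-fold each way, against 3.44% of all genes on the higher side and 5.69% on the lower. Col6a1, a beaded-filament collagen, differed by 0.61 and 0.65 and Col7a1, the anchoring-fibril collagen below the epidermis, by 0.80 and 0.47. The thrombospondins Thbs1 and Thbs2 differed by -0.70 and -0.58 and by -0.80 and -0.52. Of 16 retinoic acid genes, 7 (43.8%) were higher and 4 (25%) lower in both, and Aldh1a1, which makes retinoic acid, differed by -0.86 and -0.65.

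The 10 protein-coding genes furthest above 0 in both libraries were Trpv6, Crybb3, Gm21885, 9330159F19Rik, 1700013G24Rik, Stmn2, Kcna5, Dmp1, Pdyn and Ankfn1. Ankfn1 was the most cut of them, with 167.5, 139.4 and 82.4 CPM in the upper, middle and lower parts in Control and 127.6, 92.6 and 61.4 in MOF cKO, a log2 difference of 1.02 [0.88, 1.17] and 1.06 [0.92, 1.19]. It spans chr11:89390223-89777653. Trpv6, a calcium channel at chr6:41620624-41636405, had 18.7, 9.44 and 6.45 CPM in Control and 6.64, 5.77 and 2.96 in MOF cKO. Crybb3, a lens crystallin gene at chr5:113075839-113081584, had 33.8, 25.7 and 12.6 CPM and 21.7, 16.0 and 10.7. Of the 10, 9 were below 35 CPM in members, and several are textbook genes of other tissues (Stmn2 and Pdyn of neurons, Dmp1 of bone). A gene value counts all regions within 2 kb of the gene body, so it can hold regulatory regions of a neighbour.

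The 10 genes furthest below 0 in both were Cxcl9, Fam71a, Il1rl1, Tgm5, Tmprss13, Gnat3, Abcc9, Izumo1r, Cyp2c23 and Tnfsf18. Cxcl9, an interferon-induced chemokine at chr5:92321347-92328079, had 4.30, 10.9 and 22.2 CPM in Control and 13.6, 23.3 and 30.0 in MOF cKO. Il1rl1, the receptor for interleukin-33 at chr1:40429570-40465415, had 3.35, 6.67 and 11.8 CPM in Control and 13.8, 21.3 and 36.0 in MOF cKO. Both were lowest in members, and the MOF cKO members had about the levels of Control lower-dermis-like cells for Il1rl1. Gnat3 lies beside Cd36, and Abcc9, a potassium channel subunit of mural cells, had 8.02 CPM in Control members against 23.2 and 9.43 against 20.97 in MOF cKO.

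**Figure D3:**
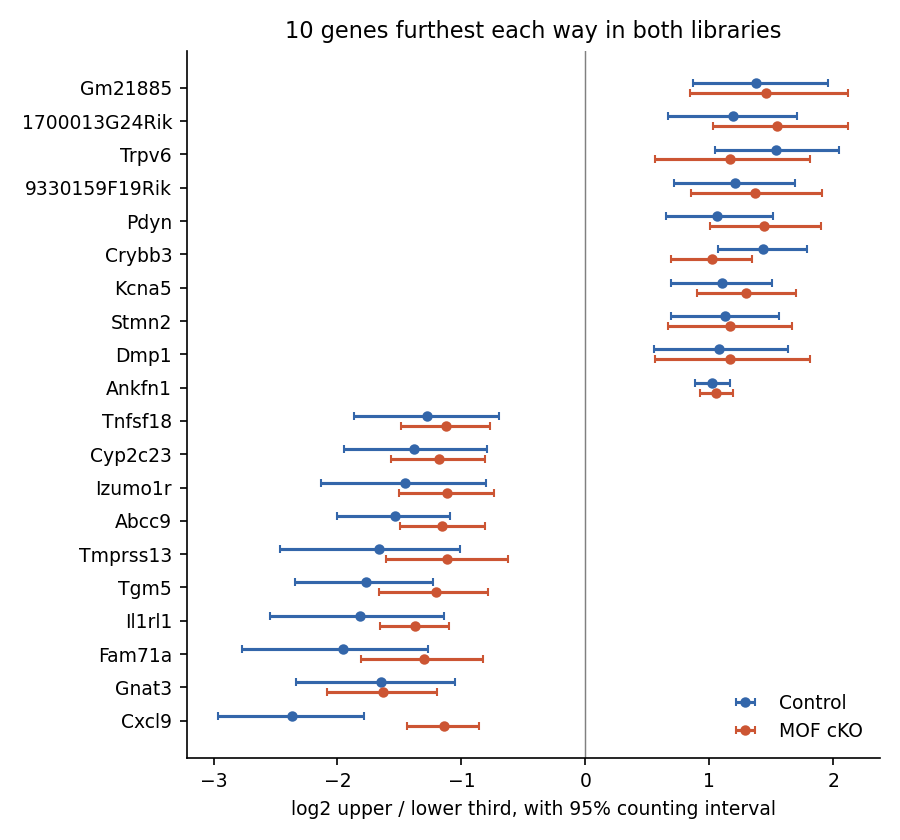
Log2 of CPM in the upper over the lower part of the ranked fibroblasts for the 10 genes furthest each way, in Control (blue) and MOF cKO (orange), with 95% counting intervals. The genes were picked on these values, from Trpv6 at 1.54 and 1.16 to Cxcl9 at -2.37 and -1.14, so the plot is a description.

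Inflammatory signal genes were lower in members than in lower-dermis-like cells. The 23 genes measured were chemokines, cytokines, NF-kB pathway genes and others such as the hyaluronan enzyme Has2. Of these, 17 (73.9%, against 35.0% of all genes) were lower in both libraries and 2 (8.70%, against 27.6%) higher in both. At least 1.25-fold lower in both were 10 (43.5%, against 5.69%). The medians were -0.47 in Control and -0.22 in MOF cKO, and -0.19 and -0.0452 with cells thinned before ranking. Ccl2, the monocyte chemokine, had 33.5, 54.3 and 78.1 CPM in Control and 88.7, 96.5 and 95.3 in MOF cKO. In Control it was lowest in members, by -1.22, while in MOF cKO the 3 parts were nearly level, with -0.10 [-0.23, 0.03]. Il1r1, the receptor for interleukin-1, had 56.3, 83.6 and 98.5 CPM and 106, 139 and 146. Tnfaip3, an inhibitor of NF-kB, differed by -0.79 and -0.35, and Cxcl1, a neutrophil chemokine, by -0.81 and -0.37.

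Cells with immune markers were also fewer among members than among lower-dermis-like cells, and their part in this result was not tested. An immune score above 3 times the library mean was found in 2 Control and 4 MOF cKO members, and in 12 and 61 lower-dermis-like cells. Summed over 8 immune markers the members had 98.5 CPM in Control and 104.5 in MOF cKO, against 109 and 163 in lower-dermis-like cells, and 0 markers were without a cut in members. Without cells scoring above 3 for any other cell type, the inflammatory medians were -0.41 in Control and -0.16 in MOF cKO. Such cells were 5.19% of Control and 6.54% of MOF cKO members, mostly by the muscle score (9 and 20 cells), and 7.79% and 16.3% of lower-dermis-like cells. Over 16 AP-1 and stress genes, which respond to cell dissociation, 9 (56.3%, against 35.0%) were lower and 2 (12.5%, against 27.6%) higher in both, with 0 past 1.25-fold either way. Over 24 genes of intraflagellar transport and the BBSome, which build the primary cilium, the medians were -0.05 and -0.04.

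Summed markers of the remaining cell types differed by less than 1.5-fold between members and lower-dermis-like cells, while single markers varied more. The summed mural markers had 254 CPM in Control members against 252, and 218 against 255 in MOF cKO. Of 8 mural markers, 0 were at least 1.25-fold higher in both libraries and 2 (25%, against 5.69% of all genes) that much lower. All 8 were lower in MOF cKO members, and 3 were lower in Control members. The summed endothelial markers had 239 against 260 and 253 against 240.5. Of 8, 1 (12.5%, against 3.44%) was at least 1.25-fold higher in both libraries and 3 (37.5%, against 5.69%) that much lower. The summed muscle markers were higher in members, with 155 against 119 and 136 against 102. Of the 8, 4 were higher and 3 lower in both libraries, and in MOF cKO 4 were higher and 4 lower. At least 1.25-fold higher in both were 2 (25%, against 3.44%), and 0 were that much lower. The summed melanocyte and Schwann markers had 246 against 245 and 242 against 227. Of the 8 measured, 1 (12.5%, against 3.44%) was at least 1.25-fold higher in both libraries and 0 that much lower. The sum over 14 epithelial markers outside the rule was lower, with 383 against 407 and 376 against 399. Of these, 1 (7.14%, against 27.6% of all genes) was higher and 4 (28.6%, against 35.0%) lower in both libraries, and in MOF cKO 7 were higher and 7 lower.

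Distal regions lay more than 2 kb from any annotated start site. Of 103592 measured, 4819 were at least 2-fold higher in members than in lower-dermis-like cells in both libraries (4.65%) and 6863 at least 2-fold lower (6.63%), while 1171 (1.13%) were past 2-fold in opposite directions. With cells thinned to 5000 cuts before ranking, 693 and 2613 regions passed. With at least 50 cuts per region, 3312 were higher and 2976 lower, so which side held more regions depended on the minimum. Regions picked in 1 library were then read in the other, whose cells had no part in the pick. Of the 1000 highest in Control, among 34229 with at least 100 cuts in each library, 95.9% were higher in MOF cKO members too, with a median of 1.30 against 1.69 in Control. Over all of these regions 61.0% were higher in MOF cKO, with a median of 0.16. Of the 1000 lowest in Control, 94.7% were lower in MOF cKO, with a median of -1.03. Of the 1000 highest in MOF cKO, 98.4% were higher in Control, where 53.2% of all these regions were higher, with a median of 0.05. Of the 1000 lowest in MOF cKO, 91.9% were lower in Control.

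The regions furthest toward the members in both libraries are shown by the 200 bases round their centre, since they had the widest difference between members and lower-dermis-like cells under the naming rule. All sequences are the plus strand of mm10 (GRCm38), and capitals mark matches to the motifs RUNX (TGTGGTT), TWIST E-box (CATCTG) and AP-1 (TGAGTCA) on either strand.
chr16:93552946-93553145: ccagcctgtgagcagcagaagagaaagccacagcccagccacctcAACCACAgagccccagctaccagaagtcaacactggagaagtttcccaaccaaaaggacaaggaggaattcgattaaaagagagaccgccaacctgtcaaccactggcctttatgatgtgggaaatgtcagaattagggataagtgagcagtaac
chr11:32902950-32903149: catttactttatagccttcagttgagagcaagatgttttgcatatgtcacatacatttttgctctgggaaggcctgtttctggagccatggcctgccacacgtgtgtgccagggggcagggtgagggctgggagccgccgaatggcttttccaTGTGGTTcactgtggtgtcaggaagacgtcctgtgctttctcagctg
chr9:15450987-15451186: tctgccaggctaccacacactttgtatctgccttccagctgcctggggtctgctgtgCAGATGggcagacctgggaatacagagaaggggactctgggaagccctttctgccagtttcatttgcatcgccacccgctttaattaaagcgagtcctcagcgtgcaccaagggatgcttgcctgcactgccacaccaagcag
The first lies between genes, 29913 bp from Setd4, in the region chr16:93552547-93553544. It had 30.0, 20.9 and 6.04 CPM in the upper, middle and lower parts in Control and 9.52, 5.41 and 1.75 in MOF cKO, a log2 difference of 2.31 [1.84, 2.81] and 2.44 [1.70, 3.17]. The second lies in an exon of the lincRNA Gm12111, 77991 bp from Smim23, and had 19.5, 12.9 and 4.50 CPM and 9.89, 5.77 and 2.11. The third lies between genes, 41911 bp from Smco4, and had 24.2, 18.8 and 5.71 CPM and 9.94, 5.08 and 2.34. In all 3 the order was the same in both libraries, and Control levels were above those of MOF cKO.

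The regions furthest toward the lower-dermis-like cells are shown for contrast.
chr16:30827911-30828110: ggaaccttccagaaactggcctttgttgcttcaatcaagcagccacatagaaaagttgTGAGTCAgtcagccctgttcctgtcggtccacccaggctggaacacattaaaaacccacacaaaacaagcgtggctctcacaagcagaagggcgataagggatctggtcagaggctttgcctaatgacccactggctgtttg
chr4:149850887-149851086: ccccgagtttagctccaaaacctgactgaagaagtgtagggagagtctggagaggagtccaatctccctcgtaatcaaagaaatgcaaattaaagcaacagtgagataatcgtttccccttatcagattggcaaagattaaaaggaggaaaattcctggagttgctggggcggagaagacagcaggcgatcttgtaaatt
chr5:143056094-143056293: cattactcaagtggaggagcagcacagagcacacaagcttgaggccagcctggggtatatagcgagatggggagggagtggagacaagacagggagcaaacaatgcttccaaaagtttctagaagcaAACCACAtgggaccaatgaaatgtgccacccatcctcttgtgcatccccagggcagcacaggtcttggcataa
The first, 126630 bp from Xxylt1, had 2.11, 2.37 and 12.9 CPM in Control and 2.55, 10.2 and 14.8 in MOF cKO. It holds an AP-1 match. The second, 44853 bp from Spsb1 and with no match to these 3 motifs in its window, had 1.46, 3.11 and 13.2 CPM and 2.41, 6.66 and 12.2. The third lies in an intron of Rnf216 and had 2.62, 4.35 and 13.2 CPM and 3.62, 10.0 and 16.0. In all 3 the members had the lowest and the lower-dermis-like cells the highest level in both libraries.

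Motif content was counted in the central 400 bases of the 1000 regions furthest each way in both libraries. The TWIST E-box, named for the mesenchymal factor Twist, was in 60.0% [56.9, 63.1] of regions leaning to the members, in 33.9% of those leaning the other way and in 40.2% of all measured. RUNX letters were in 18.2% [15.9, 20.7], 9.2% and 11.4%. SOX letters (AACAAAG or AACAATG) were in 23.4%, 13.7% and 16.7%, and homeobox letters (TAATTA) in 15.8%, 7.5% and 12.2%. These 4 were more frequent on the members' side than on the other.

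AP-1 letters went the other way, in 9.5% [7.75, 11.5] of regions leaning to the members, 33.8% [30.9, 36.8] of those leaning away and 18.8% of all measured. TCF/LEF letters (CTTTGAA or CTTTGAT), the sequence that Lef1 and its relatives bind, were in 17.5%, 14.8% and 15.8%. With the mean of gene scores in the rule, the share on the members' side was 20.1%. C/EBP letters (TTGCNNAA), bound by factors of fat cells, were in 17.6%, 23.2% and 18.7%, TEAD letters (GGAATG) in 23.5%, 25.3% and 25.7% and NF-kB letters (GGGANTTCC or GGGGNTTCC) in 2.9%, 4.6% and 3.7%. Median GC content was 46.5%, 46.25% and 46.75%. IRF letters (GAAANNGAAA) were in 3.8%, 4.8% and 5.34%. NFI letters (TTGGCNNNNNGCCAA) were in 0 of 1000 on both sides, with a 95% upper limit of 0.368% (exact Clopper-Pearson), and in 0.164% of all measured. A match describes letters and shows no binding.

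**Figure D4:**
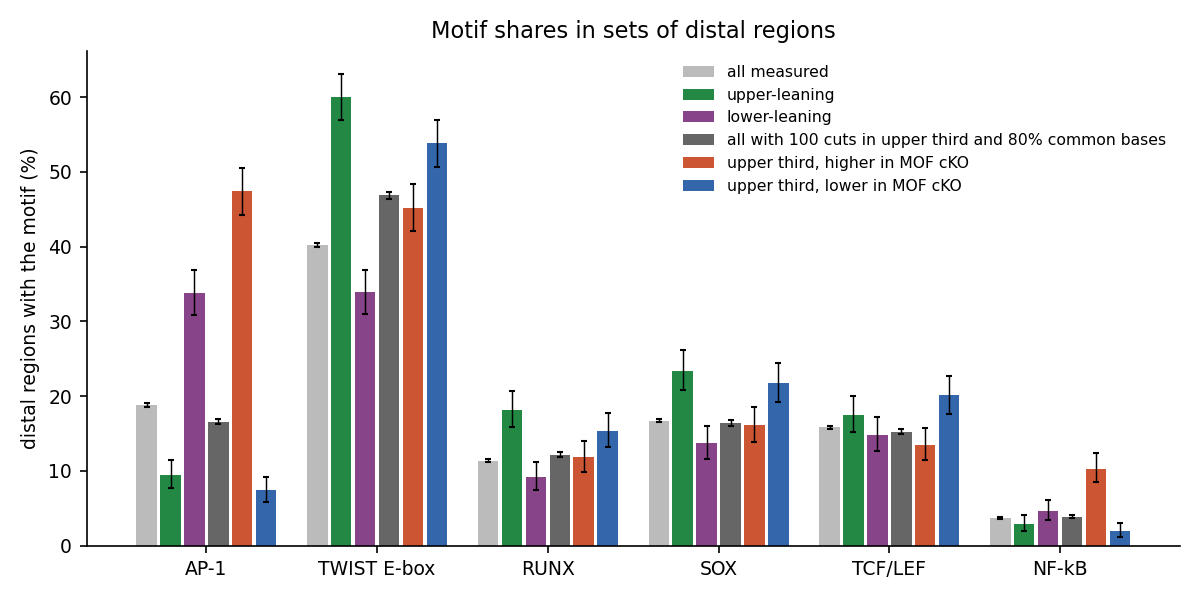
Share of distal regions that hold each motif in the central 400 bases, for all 103592 regions measured (light grey), the 1000 of these leaning to members (green) or to lower-dermis-like cells (purple), the 37981 regions with at least 100 cuts in members and 80% common bases (dark grey), and the 1000 of these that were highest (orange) or lowest (blue) in MOF cKO over Control. Each set is to be read against the grey bar of the pool it came from. The minimum of 100 cuts was over both libraries together. Bars are 95% binomial intervals. AP-1 is in 9.5% of the green and 33.8% of the purple set, and in 47.4% of the orange and 7.4% of the blue set.

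Between genotypes, promoters of the members differed little as a whole. The promoter of a gene is here all shared regions within 500 bp of its start sites. Promoter regions took 43.9% of the cuts in shared regions in Control members and 43.7% in MOF cKO members, a difference of -0.22 [-0.27, -0.17] percentage points. By cell, the middle 50% ranged from 40.1% to 47.4% in Control and from 39.8% to 46.9% in MOF cKO. The difference was -0.62 in middle and -0.98 in lower-dermis-like cells. The value in members depended on the choice of cells, with -2.44 after thinning before the ranking and -4.57e-06 with a fibroblast limit of -2. Over 15599 promoters the median log2 of MOF cKO over Control was -0.01 in members, with 256 at least 2-fold higher and 250 at least 2-fold lower. Kat8 itself had 31.6 CPM in Control members and 31.9 in MOF cKO members, a log2 value of 0.01 [-0.24, 0.27]. This promoter value does not report on a deletion inside the gene.

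Inflammatory genes stood out in the other direction. At 1.5-fold, a limit set after values were seen, 4.13% of all promoters were higher and 4.57% lower in MOF cKO members. Of 21 inflammatory promoters, 17 were higher, 11 (52.4%) by at least 1.5-fold, and 1 was that much lower, with a median log2 value of 0.67. The median was 0.32 in middle and 0.36 in lower-dermis-like cells, and the difference between these parts was not tested. Ccl2 had 12.1 CPM in Control members and 34.8 in MOF cKO members, a log2 value of 1.52 [1.17, 1.88], and was cut in 24.2% and 46.8% of members although the MOF cKO members were shallower. In lower-dermis-like cells it had 26.9 and 36.5 CPM. So the Control members were the low group and the 2 MOF cKO groups were about alike.

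Cxcl2, another neutrophil chemokine, had 4.96 CPM in Control members and 21.6 in MOF cKO members, a log2 value of 2.13 [1.60, 2.69], against 1.17 in lower-dermis-like cells. Cxcl1 had 16.55 and 39.0 CPM, and a log2 value of 1.24 [0.93, 1.54]. Ccl7 and Ccl11, both beside Ccl2, had 0.656 and 4.60 CPM and 0.583 and 2.55 CPM. Tnfaip3 had 25.5 and 49.1 CPM, Il6 28.1 and 47.1 and Nfkbia, the main inhibitor of NF-kB, 65.0 and 85.3. Has2, which makes hyaluronan, was the 1 past 1.5-fold on the lower side, with 35.4 and 20.9 CPM.

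**Figure D5:**
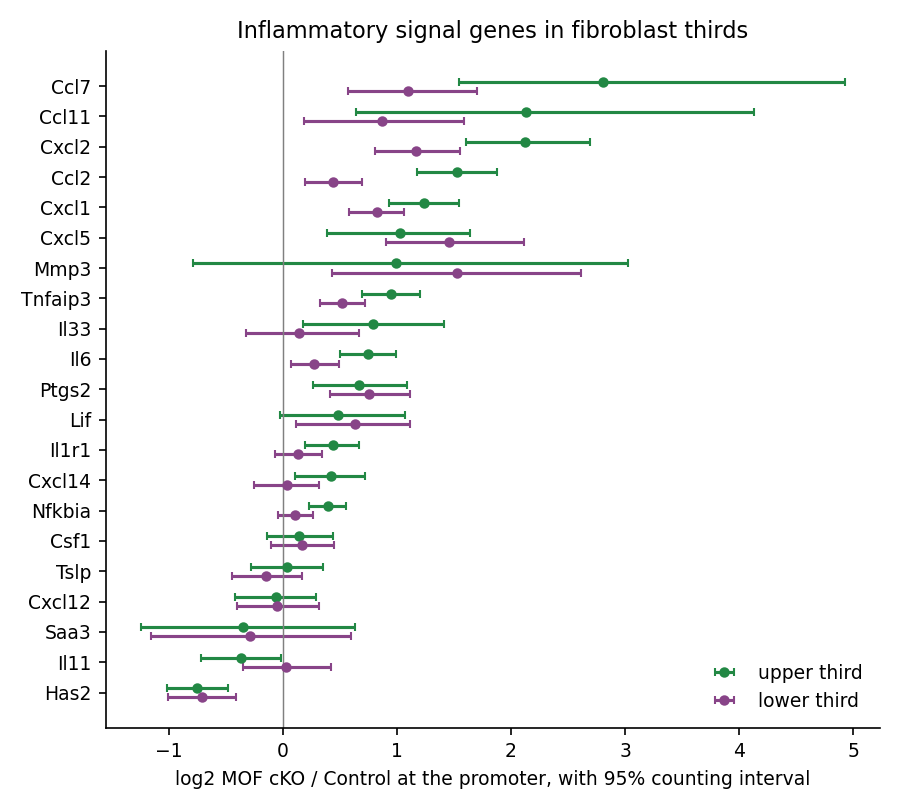
Log2 of MOF cKO over Control at the promoters of 21 inflammatory signal genes in members (green) and lower-dermis-like cells (purple), with 95% counting intervals. In members 17 of the 21 genes lie above 0, from Ccl7 at 2.81 down to Has2 at -0.76 among those named in the text.

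The promoters furthest up in MOF cKO members were those of Gm43302 and Gbp6, which share 1 region, Casp4, Gm11146 and Olfr433. Gbp6, an interferon-induced GTPase, had 1.02 CPM in Control and 9.66 in MOF cKO, a log2 value of 3.24 [2.15, 4.59], and was cut in 3.03% and 18.7% of members. Casp4, the inflammatory caspase that senses lipopolysaccharide, had 1.53 and 11.9 CPM, a log2 value of 2.96 [2.10, 4.12]. Both were also higher in lower-dermis-like cells, by 2.10 and 1.99. Gm11146 had 1.90 and 10.8 CPM and the olfactory receptor gene Olfr433 2.11 and 11.8, with values in lower-dermis-like cells of 0.85 and 0.83. The Casp4 promoter is shown because its difference was among the greatest in members. It is the RefSeq window from 250 bases before to 50 after the start, on the plus strand of GRCm38.p6, with NF-kB matches in capitals.
Casp4 promoter, chr9:5308599-5308898: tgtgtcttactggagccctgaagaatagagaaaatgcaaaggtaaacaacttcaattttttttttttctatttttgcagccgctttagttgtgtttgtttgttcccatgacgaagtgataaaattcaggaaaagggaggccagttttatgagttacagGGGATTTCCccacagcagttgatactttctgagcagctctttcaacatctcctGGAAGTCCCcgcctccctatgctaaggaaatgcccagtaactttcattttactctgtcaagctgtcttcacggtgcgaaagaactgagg
NF-kB letters were in 3.34% and IRF letters in 3.44% of 32851 RefSeq promoters of this length. The Casp4 window holds 2 matches to these NF-kB letters, while the windows of Olfr433 and Cxcl2 hold 0. The Cxcl2 window does hold gggaatttcc, which is longer than the letters counted. Its count of 0 therefore does not show that an NF-kB site is absent.

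The promoters furthest down were those of Gm11541, Dyrk2, Gpr12, Aqp1 and Rab44. Aqp1, a water channel, had 18.9 CPM in Control members and 6.41 in MOF cKO members, a log2 value of -1.56 [-2.01, -1.13], and was cut in 35.9% and 11.98% of them. In lower-dermis-like cells its value was -0.41. Rab44 had 10.7 and 3.67 CPM and Gm11541 13.9 and 3.30. Peaks were called in each library separately, and for Dyrk2 and Gpr12 only 3.79% and 53.3% of the bases were in peaks of both, against 93.4% for Aqp1, so their values compare partly different bases.

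The upper-dermis genes leaned slightly down in MOF cKO members. Of 21 promoters outside the rule, 14 were lower and 3 by at least 1.5-fold (14.3%, against 4.57% of all promoters), with a median of -0.15. Over the 16 with at least 80% common bases the median in members was -0.07, and 51.4% of all promoters were lower in members. Over all 21 the median was -0.10 in middle and -0.04 in lower-dermis-like cells. Ptk7, a Wnt co-receptor of the planar polarity pathway, had 81.4 CPM in Control and 47.8 in MOF cKO, a log2 value of -0.77 [-0.94, -0.59], against -0.32 in lower-dermis-like cells. Wif1 had 37.1 and 24.3 CPM and Nkd1 41.9 and 28.7. Lef1 and Axin2 took part in choosing the members, so their values describe the choice and are no further evidence of a lean. Lef1 had 54.2 and 44.4 CPM, a log2 value of -0.29 [-0.49, -0.09], and Axin2 72.1 and 67.4 CPM, with -0.10 [-0.26, 0.07]. Of 16 promoters of Wnt inhibitors and feedback genes, 10 were lower and 2 (12.5%, against 4.57%) by at least 1.5-fold, with a median of -0.14. Promoters of the 14 ligands and 32 receptors and transducers of the Wnt pathway had medians of -0.06 and -0.03, with 0 past 1.5-fold either way.

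Among 17 condensate genes 12 were lower, 4 of them (23.5%, against 4.57%) by at least 1.5-fold, and 1 (5.88%, against 4.13%) was that much higher, with a median of -0.29. Ptch1, the receptor for Hedgehog, had 87.3 CPM in Control members and 56.4 in MOF cKO members, and Sox2 24.3 and 17.5. Medians were -0.24 in middle and -0.21 in lower-dermis-like cells, so the lean was not confined to members. Of 37 matrix genes, 3 (8.11%, against 4.13% of all promoters) were at least 1.5-fold higher and 4 (10.8%, against 4.57%) lower, from 1.18 to -1.15, round a median of -0.01. Dermal transcription factors and cilium genes had medians of -0.01 and 0.03. The 16 promoters of lower-dermis genes had a median of 0.12, with 0 past 1.5-fold either way.

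Distal regions differed between genotypes in their motif content. The pool was 37981 regions with at least 100 cuts in members and at least 80% of their bases in peaks of both libraries. That minimum was over both libraries together, so a region could pass through 1 library alone, and MOF cKO members held more cuts in all. The 1000 highest in MOF cKO members held AP-1 letters in 47.4% [44.3, 50.5] and the 1000 lowest in 7.4% [5.85, 9.20], against 16.6% of all. NF-kB letters were in 10.3%, 2.0% and 3.87%. TWIST E-box letters were in 45.2%, 53.8% and 46.9%, TCF/LEF letters in 13.5%, 20.1% and 15.3% and SOX letters in 16.1%, 21.8% and 16.4%. Median GC content was 43.75% in the higher and 48.75% in the lower set, and its part in these shares was not tested. Sets chosen the same way in lower-dermis-like cells had AP-1 letters in 52.3% and 5.9%. Read in those cells, the regions chosen as highest in members had a median of 0.91, against 2.29 in members, and those chosen as lowest -0.90, against -1.60. The regions chosen as highest in lower-dermis-like cells had 2.06 there and 1.35 in members, and those chosen as lowest -1.37 and -0.66. Each set was picked on the wider of its 2 values, so which part differed more between genotypes was not tested.

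Regions that leaned to the members were lower in MOF cKO on the whole. The 1000 leaning to the members had a median log2 of MOF cKO over Control of -0.92 in members and -0.94 in lower-dermis-like cells, while the 1000 leaning away had 0.83 and 0.51. All regions measured had -0.03 and -0.04. These sets were chosen on ratios within each library.

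Of the regions furthest up and down in MOF cKO members, 2 each way were picked after values were seen, and the 2 on the upper side are shown because Control members had almost no cuts there. Capitals mark the same 3 motifs on the plus strand of mm10.
chr15:36044294-36044493: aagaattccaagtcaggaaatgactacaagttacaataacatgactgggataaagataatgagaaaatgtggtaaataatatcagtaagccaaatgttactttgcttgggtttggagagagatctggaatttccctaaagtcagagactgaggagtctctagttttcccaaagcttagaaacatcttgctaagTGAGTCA
chr7:136707517-136707716: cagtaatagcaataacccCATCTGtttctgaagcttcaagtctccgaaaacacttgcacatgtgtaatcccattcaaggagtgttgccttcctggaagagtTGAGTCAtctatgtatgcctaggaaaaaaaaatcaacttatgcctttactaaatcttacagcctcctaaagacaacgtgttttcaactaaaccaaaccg
The first lies in an intron of Rgs22, with 4 cuts in 2 Control members and 235 cuts in 86 MOF cKO members, a log2 value of 5.23 [3.35, 8.29]. In lower-dermis-like cells it had 73 and 217 cuts, a log2 value of 0.99. The second lies in the lincRNA Gm6249, 186572 bp from Mgmt, with 9 cuts in 5 and 333 cuts in 119 members, and 1.25 in lower-dermis-like cells. Both hold an AP-1 match in the window. On the other side, a region 24194 bp from Ntf3 had 184 cuts in Control members and 37 in MOF cKO members, and 1 in an exon of Krt82 had 178 and 37. In Control these 2 regions were also higher in members than in lower-dermis-like cells, with 54 and 43 cuts in the latter.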

How the data were processed

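Accessibility was measured in 1 Control and 1 MOF cKO library of E16.5 back skin. The authors deposited raw counts of cut sites per peak and barcode, made with cellranger-atac on mm10, with peaks and cells called per library. Gene bodies and start sites used here were those of GENCODE M21, apart from the RefSeq promoter windows. The submitters' processing notes list Cell Ranger ARC and Cell Ranger ATAC. The libraries held 169641002 cuts in 2541 barcodes and 324310197 cuts in 4348 barcodes, and 21 barcodes occurred in both, 0 of them among members. Of the values in the matrices, 88.8% and 91.6% were even, as 2 cuts come from each fragment.

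The members and the gene lists were chosen with earlier results of these data known. Cells with at least 5000 cuts were scored on their library's own peaks. A cell with no lower-set cut ranked highest, with ties in order of the upper score, and 1 and 5 fibroblasts with no cut in either set were not ranked. Doublets were not called. Cuts were then summed over 214119 shared regions, formed by merging overlapping peaks of both libraries, and scaled to CPM (totals in members 13718460 and 21535556). Gene values are sums over regions within 2 kb of the gene body, so a region near 2 genes counts for both. Regions within 2 kb of a rule gene were left out of gene values and distal regions. Features needed 20 cuts, and the genes, promoters and regions named as furthest each way 200. Between genotypes these minimums were over both libraries together, so a feature could pass through 1 library alone. Between parts of the ranking they held in each library.

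Named were the rule genes, the 10 autosomal protein-coding genes and 3 distal regions furthest each way in both libraries, the 5 autosomal promoters furthest each way between genotypes, and list members furthest from 0. Intervals were exact (Poisson, binomial or conditional binomial). With 1 library per genotype, no test was run. The scripts used scipy 1.17.1, numpy 2.4.6, pandas 2.3.3, pysam 0.24.0 and matplotlib 3.10.9 under Python 3.11.15 and were tested on simulated data. The alternatives varied the choice of cells, the totals, the regions and the limits. The value of 1 list gene is not reported here, though the counts include it.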

Additional observations from a re-analysis of the deposited data

Results flagged for a closer look

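Of 353 genes of the lists compared between members and lower-dermis-like cells, and 322 promoters of the lists compared between genotypes, a few had intervals on opposite sides of 0 in the 2 libraries or in the 2 parts of the ranking. None of these differences was tested, since each rests on 1 library per genotype.

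Cxcr4, a chemokine receptor of condensate and immune cells, was higher in members by 0.39 log2 units in Control and had -0.38 in MOF cKO, a difference of -0.77 (MOF cKO minus Control). Immune-marker cells were most frequent among MOF cKO lower-dermis-like cells, and their part in this value was not tested. Col4a2, a basement membrane collagen, had 0.20 and -0.19, a difference of -0.39. Esam, an endothelial adhesion gene, had -0.33 and 0.28, a difference of 0.61. Fn1, which encodes fibronectin, had -0.26 and 0.15, a difference of 0.42. The regions round Axin2 had -0.18 and 0.18, a difference of 0.36.

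At promoters, Col13a1 had a log2 value of MOF cKO over Control of -0.27 in members and 0.31 in lower-dermis-like cells, a difference of -0.57. Fn1 had 0.32 in members and -0.20 in lower-dermis-like cells, a difference of 0.52.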

How the results depend on the processing

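Over 16 results, 164 alternative values were computed, of which 99 stayed within the counting interval of the main value or within 1.5 times the main count, 62 moved further and 3 changed sign. The cause of a move was not tested. The alternatives for inflammatory genes, for AP-1 shares and for regions with 80% common bases were chosen after seeing the data. Leaving out a replicate could not be done with 1 library per genotype. No paired analysis was possible because the labels give 1 sample per genotype and no replicate numbers.

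Thinning each cell to 5000 cuts before ranking had the widest effect. The upper-dermis median was then 0.25 in Control and 0.15 in MOF cKO, the lower-dermis median 0.0147 in Control (sign changed) and -0.00488 in MOF cKO, and the inflammatory median -0.19 and -0.0452. Distal regions past 2-fold were then 693 higher and 2613 lower, the AP-1 share of regions leaning to the members 7.5%, that of regions higher in MOF cKO members 68.2%, the promoter share difference -2.44 percentage points, the median promoter value -0.0751 and the inflammatory promoter median 0.54.

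With the mean of gene scores in the rule, the upper-dermis medians were 0.26 and 0.18, the lower-dermis medians -0.19 and -0.18, the inflammatory medians -0.40 and -0.15, the regions past 2-fold upward 3150, the TCF/LEF share 20.1%, the promoter share difference -0.39, the median promoter value -0.0121 and the inflammatory promoter median 0.45. With a fibroblast limit of -2 the upper-dermis medians were 0.27 and 0.21, the lower-dermis median in MOF cKO -0.14, the promoter share difference -4.57e-06, the median promoter value 0.00276 (sign changed) and the inflammatory promoter median 0.48. Without Dkk1 the upper-dermis median in Control was 0.25 and the inflammatory promoter median 0.76. Without the deepest 10% of fibroblasts the upper-dermis medians were 0.25 and 0.31, the lower-dermis median in MOF cKO -0.13, the inflammatory median in MOF cKO -0.18 and the inflammatory promoter median 0.51. Without cells of other types the upper-dermis medians were 0.27 and 0.19, the lower-dermis median in MOF cKO -0.15, the inflammatory medians -0.41 and -0.16, the promoter share difference -0.38 and the median promoter value -0.0121. With 1 fragment added to each set and with at least 20000 cuts per cell the promoter share differences were -0.64 and -0.31, and the median promoter values -0.0225 and -0.0134.

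With median-of-ratios totals the upper-dermis medians were 0.37 and 0.30, the lower-dermis medians -0.20 and -0.0468 and the median promoter value 0.0195 (sign changed). With totals over each library's own peaks the upper-dermis median in MOF cKO was 0.30, the lower-dermis median -0.0519 and the median promoter value -0.0408. Promoters alone gave upper-dermis medians of 0.36 and 0.14. A 1.5-fold limit gave 11805 distal regions higher and 13946 lower, and a minimum of 50 cuts gave 3312 higher and 2976 lower. A window of 200 bases gave a TCF/LEF share of 9.7%. A shorter window cannot hold more matches, and the share of all regions at this window is not given. Thinning each cell before the promoter share gave -0.32. With at least 80% common bases the promoter share difference was -0.63 and the inflammatory promoter median 0.58.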

Other observations

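Interferon and inflammasome genes, a list drawn up after values were seen and so a description, were higher in MOF cKO across the fibroblasts and not in the members alone. Of 49 promoters, 43 were higher in MOF cKO members and 27 (55.1%, against 4.13% of all promoters) by at least 1.5-fold, while 1 (2.04%, against 4.57%) was that much lower, with a median log2 value of 0.71. The median was 0.90 in middle and 0.70 in lower-dermis-like cells. Casp12, which lies beside Casp4, had 2.11 CPM in Control members and 9.94 in MOF cKO members. Of 48 measured over gene bodies, 1 (2.08%, against 3.44% of all genes) was at least 1.25-fold higher in members than in lower-dermis-like cells in both libraries, and 12 (25%, against 5.69%) were that much lower.

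Promoters of immediate early genes differed less. Atf3, a stress-induced factor, had 49.9 CPM in Control members and 69.4 in MOF cKO members, and Fos, a subunit of AP-1, had 70.6 and 90.4. Over 16 AP-1 and stress genes the median was 0.11, with 0 past 1.5-fold either way. Over 24 cilium genes it was 0.03, again with 0 past 1.5-fold.

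Endothelial markers had a median of 0.55 over 6 promoters in members and -0.11 in lower-dermis-like cells. Immune markers had 0.05 over 6 promoters in members and 1.49 in lower-dermis-like cells, where cells with a high immune score were most frequent.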
